A study of Homo sapiens with 6 samples.

Results

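The 32 genes described here encode the folding machinery of the endoplasmic reticulum (ER) and the stress pathways that adjust it. They were chosen by gene symbol from a table of 38170 annotated features, and each symbol matched 1 row. The members fall into 18 ER folding genes, 4 sensor genes (XBP1, a factor downstream of a sensor, is counted among them) and 10 genes of the ATF4 and CHOP arm. They were compared between A549 cells with piggyBac overexpression of the long non-coding RNA LOC401312 and A549 cells with an empty vector, 3 libraries each. A549 is a human lung carcinoma line, and piggyBac is a transposon that inserts its cargo into the genome. All cells were grown in DMEM with serum, and no library was labelled as irradiated or treated with an ER stressor. The labels do not say whether the lines were pools or single clones. They give the genotypes of LOC401312 replicates 2 and 3 as LOC401313 and LOC401314, against their titles, and samples were grouped by title.

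Proteins bound for secretion or for membranes fold in the ER with the help of chaperones such as HSPA5 (BiP), lectins that read their sugars, and isomerases that form disulfide bonds. When unfolded proteins accumulate, the sensors ATF6, ERN1 (IRE1) and EIF2AK3 (PERK) start the unfolded protein response. ATF6 and the spliced form of XBP1 raise chaperone and degradation genes, while EIF2AK3 phosphorylates eIF2, slows translation and favours the synthesis of ATF4. ATF4 also answers to amino acid shortage, through another eIF2 kinase, and induces DDIT3 (CHOP) and targets such as TRIB3, CHAC1 and SESN2.

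Many ER chaperone genes carry the ER stress response element (ERSE) in their promoters, the site read by ATF6 with NF-Y. The letters CCAAT and CCACG with 9 bases of any kind between them were searched on both strands of RefSeq promoter windows (GRCh38.p14), each of 250 bases before and 50 bases after a transcript start. They were present in 27 of 35116 windows (0.0769%). Of the members, 31 had a window and PDIA3 had none. The letters were present in the windows of 7 members, at both of the places shown for HSP90B1, and these stretches are shown because they are a promoter feature that these members share. They run 5′ to 3′ in the direction of the element, with its fixed letters in capitals.
PDIA6, chr2:10812847-10812877 (- strand): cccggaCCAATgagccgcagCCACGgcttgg
CANX, chr5:179698772-179698802 (+ strand): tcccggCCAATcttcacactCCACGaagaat
HSPA5, chr9:125241385-125241415 (- strand): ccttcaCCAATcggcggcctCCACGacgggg
HSP90B1, chr12:103930210-103930240 (+ strand): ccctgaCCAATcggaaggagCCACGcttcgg
HSP90B1, chr12:103930315-103930345 (- strand): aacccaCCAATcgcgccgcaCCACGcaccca
CALR, chr19:12938378-12938408 (- strand): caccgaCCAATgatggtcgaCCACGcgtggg
XBP1, chr22:28800597-28800627 (- strand): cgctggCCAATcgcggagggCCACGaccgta
CRELD2, chr22:49918548-49918578 (- strand): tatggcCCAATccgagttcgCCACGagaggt

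A shorter element, ERSE-II (ATTGG, 1 base of any kind, then CCACG), was present in 19 windows (0.0541%) and in those of 3 further members. HYOU1 held it at both of the places below. No ERSE-II match overlapped an ERSE match in these windows.
HYOU1, chr11:119057374-119057396 (+ strand): cctgggATTGGaCCACGtcacgg
HYOU1, chr11:119057268-119057290 (+ strand): gtactcATTGGaCCACGtcccag
HERPUD1, chr16:56932019-56932041 (+ strand): acgccgATTGGgCCACGttggga
SDF2L1, chr22:21642108-21642130 (- strand): gttttgATTGGtCCACGcttccg

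The ATF4 arm is read through C/EBP-ATF elements, for which the letters TTGCATCA were searched on both strands. They were present in 304 windows (0.866%), and among the members in those of CHAC1 and HERPUD1, with the element in capitals.
CHAC1, chr15:40953256-40953275 (+ strand): ctgccgTTGCATCActcctg
HERPUD1, chr16:56931960-56931979 (+ strand): ggcgggTTGCATCAgcccgt

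The full windows of HSPA5, PDIA6 and XBP1 follow, because HSPA5 is the standard readout of the response. The other 2 are the members with an ERSE that passed the test between groups, PDIA6 only before chromosome medians were removed. Capitals mark the fixed letters of the ERSE, and each window is read on the strand of its gene.
HSPA5, chr9:125241294-125241593 (- strand): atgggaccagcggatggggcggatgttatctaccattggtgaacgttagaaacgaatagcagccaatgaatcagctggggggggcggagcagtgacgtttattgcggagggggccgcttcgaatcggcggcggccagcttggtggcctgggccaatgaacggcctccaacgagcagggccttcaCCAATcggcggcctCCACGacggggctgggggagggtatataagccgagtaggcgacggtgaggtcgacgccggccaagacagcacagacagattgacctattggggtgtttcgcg
PDIA6, chr2:10812736-10813035 (- strand): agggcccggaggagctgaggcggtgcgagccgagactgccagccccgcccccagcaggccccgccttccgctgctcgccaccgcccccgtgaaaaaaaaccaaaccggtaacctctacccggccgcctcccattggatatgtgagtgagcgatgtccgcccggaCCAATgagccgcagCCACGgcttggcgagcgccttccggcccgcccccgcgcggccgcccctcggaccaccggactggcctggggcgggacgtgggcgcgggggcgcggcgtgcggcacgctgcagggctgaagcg
XBP1, chr22:28800520-28800819 (- strand): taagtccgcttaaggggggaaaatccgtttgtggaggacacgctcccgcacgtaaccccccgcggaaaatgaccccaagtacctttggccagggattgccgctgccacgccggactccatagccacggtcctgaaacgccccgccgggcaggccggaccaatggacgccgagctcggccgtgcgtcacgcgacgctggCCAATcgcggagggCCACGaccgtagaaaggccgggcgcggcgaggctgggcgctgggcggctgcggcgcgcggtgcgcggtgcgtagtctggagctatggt

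PDIA6 and XBP1 each had another annotated start whose window did not hold the letters. A match is a description of these letters and was not tested as a binding site. Of the 10 members with an ERSE or an ERSE-II, 2 were lower in LOC401312 cells (PDIA6 and XBP1) and none was higher. The log2 changes of the 10 ran from -0.26 to 0.07, with a median of -0.015. PDIA6 lies on chromosome 2, whose genes were lower as a whole. With the median of each chromosome taken off, PDIA6 was at -0.04 (edgeR adjusted p = 0.626) and XBP1 at -0.2 (adjusted p = 0.0311). Of the 21 members with a window and no exact match to either element, 1 was higher and 2 were lower, with a median of -0.1. Elements with other letters were not searched. The 21 include folding genes, sensors and the ATF4 and CHOP arm, so the 2 medians are not of like sets. Over all tested features 4.13% were higher and 4.58% lower.

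Libraries held 65823845 to 70202062 counts for LOC401312 and 60971105 to 73994619 counts for vector, and 19620 features had enough counts to be tested. RefSeq places LOC401312 over one end of STEAP1B, and the STEAP1B entry, from which it was read, had 94628, 92527 and 90297 counts in LOC401312 libraries against 9, 11 and 23 counts in vector libraries. The epithelial keratins KRT8, KRT18 and KRT7 were at 1434 CPM or more in every library, where CPM are counts scaled to a common library total, while the alveolar markers SFTPB, SFTPC and NKX2-1 were at or near 0. Of the other epithelial markers, EPCAM was at 1.69 to 2.85 CPM, and CDH1 was higher in LOC401312, at 107 ± 2.62 CPM against 76.5 ± 1.77 CPM in vector (log2 0.48, SE 0.04, adjusted p = 0.000131). The other alveolar marker, NAPSA, was low and also higher in LOC401312, at 2.20, 2.01 and 2.37 CPM against 0.97, 1.12 and 1.15 CPM in vector (log2 1.02, SE 0.22, adjusted p = 0.0183). Some libraries stood apart. Summed levels of 7 placental markers were 1.53, 99.1 and 89.1 CPM in LOC401312 replicates 1 to 3, against 0.808 to 1.72 CPM in vector. Summed levels of 4 blood markers were 0.205 to 0.397 CPM in LOC401312, against 13.3 CPM in vector replicate 1 and 0.179 to 0.217 CPM in the other vector libraries. KRT13 was at 0 to 0.0709 CPM in LOC401312 and at 4.23 to 4.65 CPM in vector. Summed levels of 4 fibroblast markers were 20.5 to 21.8 CPM in LOC401312 and 36.0 to 47.8 CPM in vector. These 4 did not move together. COL1A1 was lower, at 12.1 CPM in LOC401312 and 23.4 CPM in vector, as was COL1A2, at 5.33 and 14.4 CPM. LUM was at 1.6, 2.3 and 2.52 CPM in LOC401312 and 4.67, 0.418 and 0.797 CPM in vector. DCN was at 1.06, 1.73 and 1.36 CPM in LOC401312 and 2.76, 0.519 and 0.959 CPM in vector. The part of these differences in the results below was not tested beyond the refits without libraries given there.

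All 32 members passed the filter on low counts. Of them 1 was higher and 4 were lower in LOC401312 cells at an adjusted p of 0.05, and 27 did not pass. EDEM1 rose, and PDIA6, PDIA4, XBP1 and VLDLR fell. Over all tested features 8.72% passed, 4.13% higher and 4.58% lower, and among the 9884 features that averaged 10 CPM or more 13.5% passed. The members' share, 15.6%, was close to the 13.5% of features at that level, where 29 of the 32 lie. The median log2 change of the members was -0.027, against -0.001 over all tested features. In bulk RNA, fewer cells of a kind and less RNA per cell cannot be told apart. Without LOC401312 replicates 2 and 3, 0 members passed in edgeR (1 higher and 5 lower at an unadjusted p of 0.05), while 84 features in all were higher and 91 lower.

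**Figure D1:**
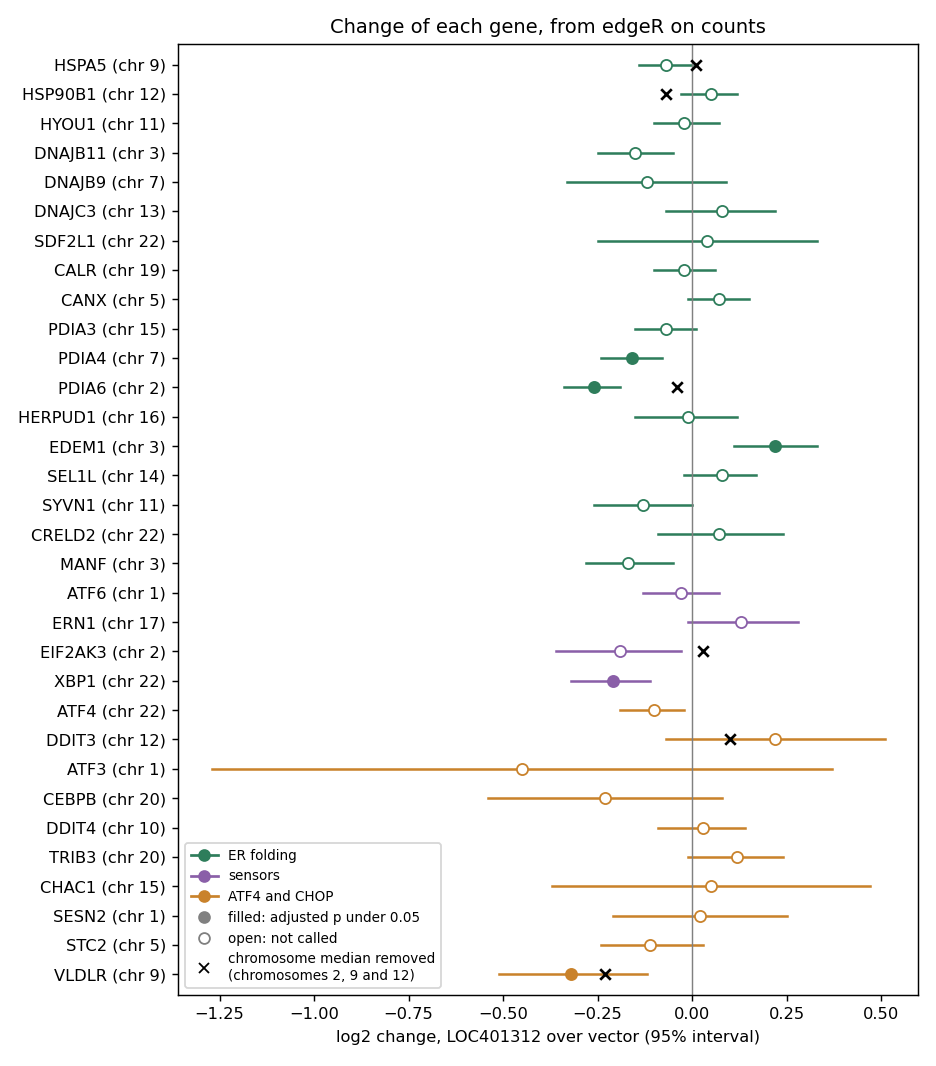
Log2 change of each member, LOC401312 over vector, from edgeR's quasi-likelihood fit on counts, with 95% intervals as bars (3 libraries per group). Filled points passed an adjusted p of 0.05, open points did not, and crosses give the value with the chromosome median removed for members of chromosomes 2, 9 and 12. EDEM1 is the filled point on the right, at 0.22, and PDIA6, at -0.26, moves to -0.04 with its chromosome's median removed.

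Per transcript length, the members covered a wide range of levels. In FPKM (fragments scaled for transcript length and library total, as deposited), CALR was the highest, at 263 ± 3.59 in LOC401312 and 245 ± 0.496 in vector (SD, n = 3 each). HSPA5 had 200 ± 1.18 FPKM in LOC401312 and 193 ± 10.7 FPKM in vector, and HSP90B1 had 198 ± 1.80 FPKM in LOC401312 and 176 ± 7.69 FPKM in vector. The libraries of these neighbours in the order overlapped in LOC401312, and in vector the lowest of HSPA5, 184.26 FPKM, lay just above the highest of HSP90B1, 183.71 FPKM. The ATF4 arm held ATF4 itself at 74.7 ± 1.59 FPKM in LOC401312 and 73.5 ± 1.63 FPKM in vector, and DDIT4 at 72.1 ± 4.32 FPKM in LOC401312 and 64.8 ± 1.56 FPKM in vector. TRIB3, at 27.0 FPKM in LOC401312 and 22.8 FPKM in vector, and CEBPB, at 34.9 FPKM in LOC401312 and 37.3 FPKM in vector, lay in the middle of the order. DDIT3 was at 4.13 ± 0.412 FPKM in LOC401312 and 3.25 ± 0.312 FPKM in vector, CHAC1 at 1.26 ± 0.0529 FPKM in LOC401312 and 1.12 ± 0.225 FPKM in vector, and ATF3 at 0.12, 0.21 and 0.32 FPKM in LOC401312 and 0.32, 0.32 and 0.18 FPKM in vector. The sensors ATF6, EIF2AK3 and ERN1 lay between 2.47 FPKM (ERN1) and 7.66 FPKM (ATF6) in LOC401312. In vector they lay between 2.06 FPKM (ERN1) and 7.17 FPKM (ATF6). XBP1, grouped with them, was at 15.2 ± 0.651 FPKM in LOC401312 and 16.2 ± 0.573 FPKM in vector.

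**Figure D2:**
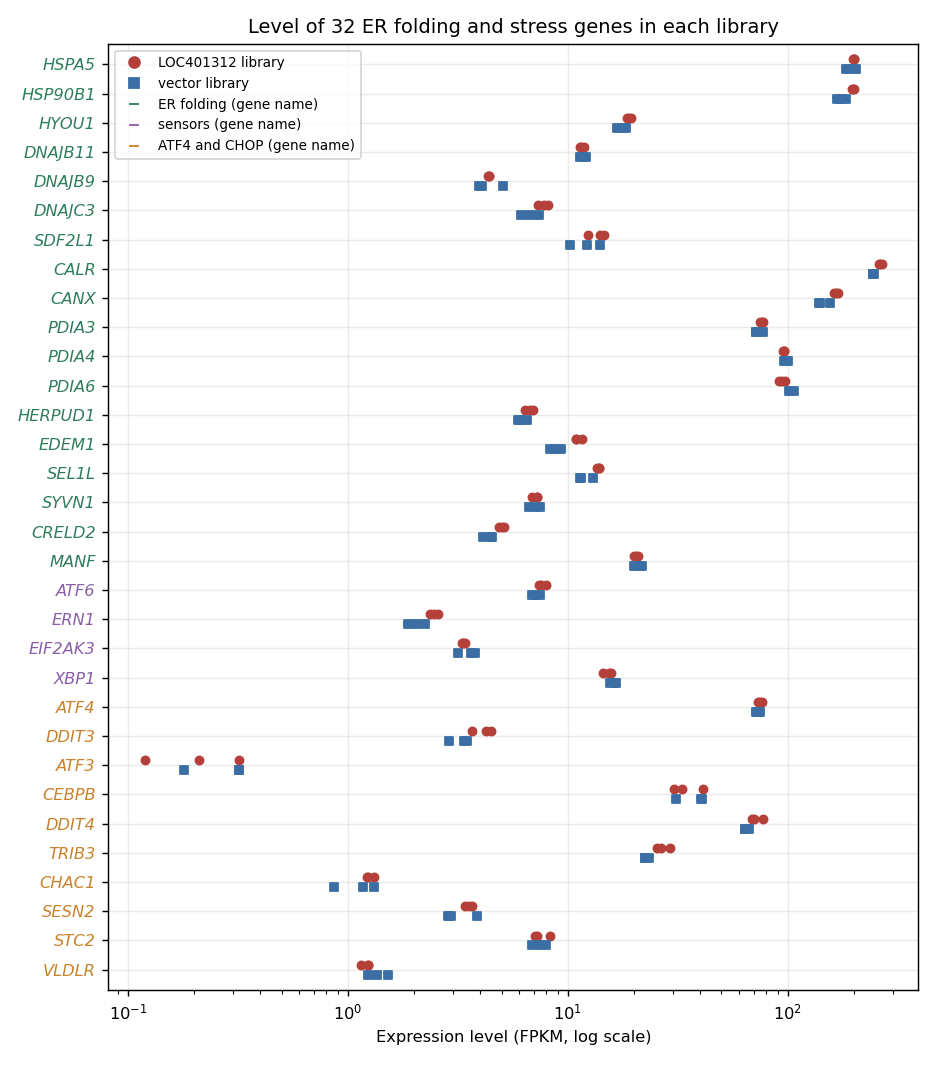
FPKM of each member in each library on a log axis, with LOC401312 libraries as circles above vector libraries as squares; gene names are coloured by arm. CALR, HSPA5, HSP90B1 and CANX lie above 100 FPKM in all 6 libraries and ATF3 lies at 0.12 to 0.32 FPKM.

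The FPKM values carry a shift between the groups. Among 6137 features that averaged 5 FPKM or more, the median log2 change was 0.109 in FPKM and -0.016 in the counts scaled by TMM. Of the 32 members, 23 had a positive log2 change in FPKM and 13 in counts, and 15 lay above the shift. The direction of 10 members turned with the scale, HSPA5, CALR, PDIA3 and ATF4 among them, and none of the 10 passed the test on either scale. Changes below are from TMM-scaled counts, in CPM.

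The first comparison took the ER folding genes, to ask whether RNA of the folding machinery differed. RNA levels do not measure the folding capacity itself. Of 18 genes, 1 rose and 2 fell (16.7%). The share was 8.72% of all tested features and 13.5% of those that averaged 10 CPM or more. Their median log2 change was -0.019. Summed over the 18, they took 5887, 6044 and 6023 CPM in LOC401312 and 6094, 6106 and 6097 CPM in vector, so that the sum was lower in every LOC401312 library. Without PDIA6, a gene of chromosome 2, the sums were 5439, 5601 and 5592 CPM in LOC401312 and 5571, 5570 and 5567 CPM in vector, which overlap. PDIA6 had the largest fall of the 18, so taking it out narrows the gap by construction. HSPA5 and HSP90B1, of the shifted chromosomes 9 and 12, stayed in these sums.

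Of the 7 chaperones and their cofactors, 0 passed in edgeR or in DESeq2, and 2 were lower at an unadjusted p of 0.05 in both tools. HSPA5, the ER's Hsp70 chaperone, had 883, 904 and 897 CPM in LOC401312 and 957, 944 and 923 CPM in vector. All 3 LOC401312 libraries lay below the vector libraries, by a log2 change of -0.07 (SE 0.03, adjusted p = 0.202). HSP90B1 (GRP94), the ER's Hsp90, had 1047, 1080 and 1063 CPM in LOC401312 and 1028, 1007 and 1053 CPM in vector. Its groups overlapped, with a log2 change of 0.05 (SE 0.03, adjusted p = 0.459). Both intervals lie within 0.15 of 0 on the log2 scale.

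DNAJB11, a J-domain partner of HSPA5, had the largest difference among the chaperones. Its levels were 73.0, 75.9 and 78.6 CPM in LOC401312 and 82.8, 85.9 and 83.4 CPM in vector, which do not overlap. The log2 change of -0.15 (SE 0.05) did not pass (adjusted p = 0.0749), and the TBCCD1 gene on the other strand overlaps it and held 10.3% as many counts. The other J-domain partners, DNAJB9 (-0.12, adjusted p = 0.505) and DNAJC3 (0.08, adjusted p = 0.548), and the Hsp110-type HYOU1 (-0.02, adjusted p = 0.878) overlapped between groups. SDF2L1, which forms a complex with DNAJB11, was the most variable folding gene in vector, at 16.6 ± 1.22 CPM in LOC401312 and 16.1 ± 3.02 CPM in vector. Its log2 change of 0.04 has an interval of -0.25 to 0.33, so a difference within those bounds is not excluded.

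Of the 5 lectins and disulfide isomerases, 2 fell (40%, against 8.72% of all tested features and 13.5% of those that averaged 10 CPM or more). With chromosome medians removed, 1 of the 5 was called lower (20%, against 6.1% of all features). PDIA6 (ENSG00000143870; chromosome 2, 10783391 to 10837977, minus strand), an isomerase that also attenuates the ERN1 signal, had 448, 443 and 431 CPM in LOC401312 and 523, 536 and 529 CPM in vector. The groups stood far apart against their spread, with 441 ± 8.48 CPM in LOC401312 and 529 ± 6.44 CPM in vector (SD, n = 3 each). PDIA6 fell by 0.26 on the log2 scale (SE 0.03, adjusted p = 0.00127), a 0.833-fold level. It was the 1 member called on leaving out any single library, with adjusted p from 0.00165 to 0.0111.

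PDIA6 lies on chromosome 2, whose genes were lower as a whole. The median log2 change of 780 genes there that averaged 4 CPM or more was -0.233. Once library medians of each chromosome were taken off, PDIA6 was at -0.04 (SE 0.03, adjusted p = 0.626). Its 10 nearest such genes, 5 on each side, started within 0.741 Mb. Of these, 7 had a negative log2 change and 4 were called lower, among them NOL10 (-0.26, adjusted p = 0.00744). The other 3 had a positive log2 change, up to 0.34 for KLF11 (adjusted p = 0.155). The median of the 10 was -0.14, a smaller fall than that of PDIA6 or of the chromosome.

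PDIA4 (ENSG00000155660; chromosome 7, 149003062 to 149028662, minus strand), an isomerase with several thioredoxin domains, had 357, 365 and 363 CPM in LOC401312 and 394, 413 and 406 CPM in vector. It fell by 0.16 (SE 0.04, adjusted p = 0.0206), with all LOC401312 libraries below all vector libraries. The chromosome 7 median was -0.007, and with it removed PDIA4 stayed at -0.16 (adjusted p = 0.0214). Of the 6 refits that each dropped a library, the call held only in the one lacking vector replicate 1, and adjusted p reached 0.0873.

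PDIA3 (ERp57), which works with the lectins on glycoproteins, had 354, 373 and 372 CPM in LOC401312 and 387, 384 and 386 CPM in vector. These did not overlap, but the log2 change of -0.07 did not pass (adjusted p = 0.264), and the copy PDIA3P1 held 5.26% as many counts. The lectin chaperones overlapped between groups. The soluble CALR was at 817 ± 3.65 CPM in LOC401312 and 831 ± 30.9 CPM in vector, a log2 change of -0.02 (SE 0.04, adjusted p = 0.774). The membrane-bound CANX was at 1319 ± 40.4 CPM in LOC401312 and 1258 ± 31.7 CPM in vector, a log2 change of 0.07 (SE 0.04, adjusted p = 0.3).

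Of the 4 degradation genes, 1 rose (25%, against 8.72% of all tested features and 13.5% of those that averaged 10 CPM or more). EDEM1 (ENSG00000134109; chromosome 3, 5187646 to 5219958, plus strand), a lectin that sends misfolded glycoproteins to degradation, had 82.5, 84.9 and 90.0 CPM in LOC401312 and 74.5, 71.3 and 75.2 CPM in vector. It rose by 0.22 (SE 0.05, adjusted p = 0.0200), a 1.16-fold level, with no overlap between groups. EDEM1 was also the 1 member called higher in counts, in FPKM (0.34, limma adjusted p = 0.0140) and with chromosome medians removed (0.21, adjusted p = 0.0278). The call was lost without LOC401312 replicate 2 or 3 or vector replicate 2 or 3 (adjusted p up to 0.0956).

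The other degradation genes did not pass the test. SEL1L and SYVN1 form the ubiquitin ligase complex of the ER membrane. SEL1L was at 150 ± 3.48 CPM in LOC401312 and 143 ± 5.22 CPM in vector (0.08, adjusted p = 0.345). SYVN1 was at 44.7 ± 1.07 CPM in LOC401312 and 48.8 ± 3.41 CPM in vector without overlap (-0.13, adjusted p = 0.231), and shares its span with MRPL49 and FAU, which are more abundant. HERPUD1, an adaptor of that complex and a classic target of the response, was at 38.8 ± 1.26 CPM in LOC401312 and 39.2 ± 2.75 CPM in vector (-0.01, adjusted p = 0.927).

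Of the secreted stress proteins, 0 of 2 passed in edgeR or DESeq2, and MANF was lower at an unadjusted p of 0.05 in both. MANF, which binds HSPA5 and is released under stress, had 49.1, 51.6 and 49.2 CPM in LOC401312 and 53.9, 59.3 and 54.8 CPM in vector, without overlap (-0.17, SE 0.05, adjusted p = 0.0803). CRELD2 was at 29.7 ± 0.934 CPM in LOC401312 and 28.3 ± 2.34 CPM in vector (0.07, adjusted p = 0.637), and shares its span with ALG12, whose counts are 92.6% of its own.

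**Figure D3:**
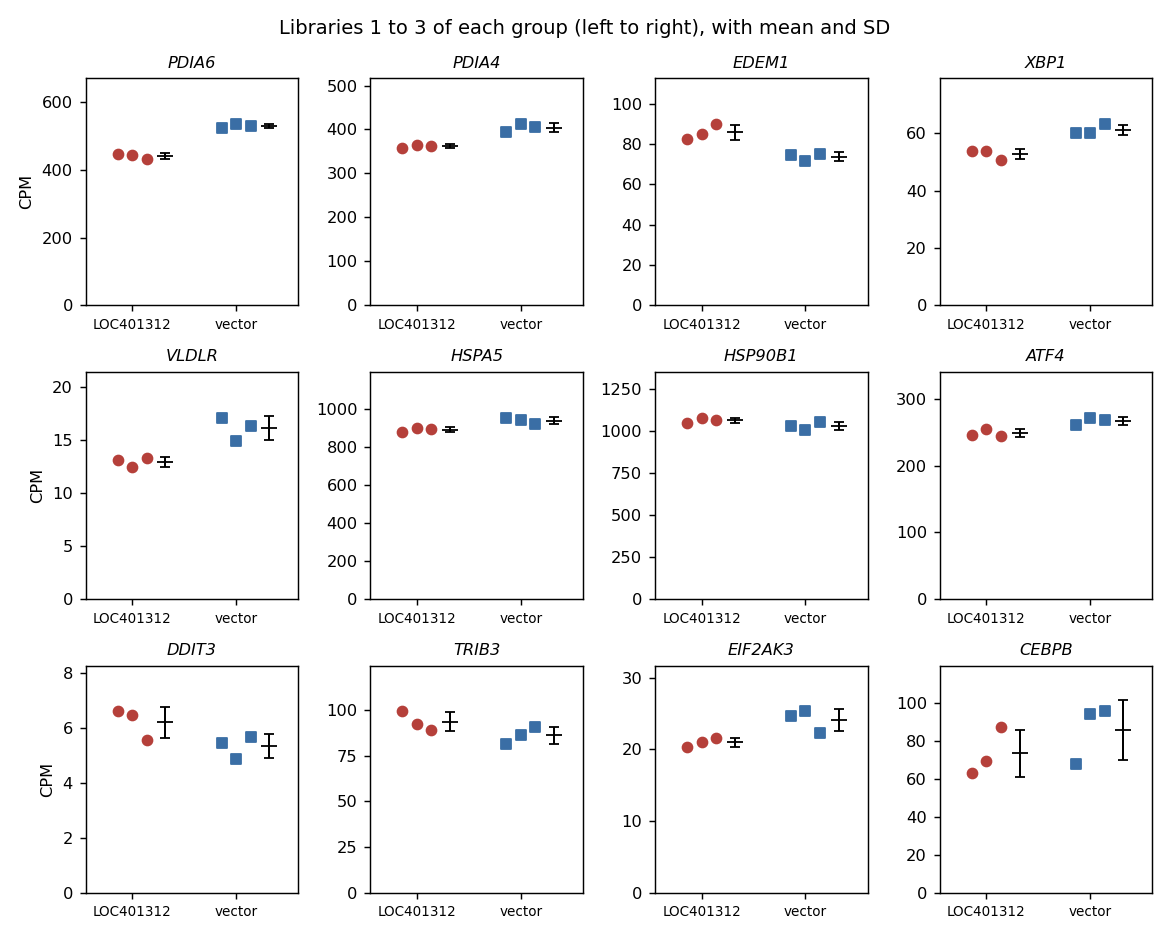
CPM of 12 members in the libraries of each group, replicates 1 to 3 from left to right, with the mean and SD beside them and each axis starting at 0. PDIA6, PDIA4, XBP1 and VLDLR lie lower in every LOC401312 library and EDEM1 higher, while DDIT3, TRIB3 and CEBPB overlap.

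The second comparison took the sensors and XBP1, of which 1 of 4 fell and 0 rose in edgeR and in DESeq2 (at an unadjusted p of 0.05, 2 fell and 0 rose in both). In edgeR the share was 25%, against 8.72% of all tested features and 13.5% of those that averaged 10 CPM or more. XBP1 (ENSG00000100219; chromosome 22, 28794555 to 28800597, minus strand) encodes the factor that ERN1 activates by splicing its mRNA. It had 53.8, 53.7 and 50.7 CPM in LOC401312 and 60.1, 60.0 and 63.3 CPM in vector. XBP1 fell by 0.21 (SE 0.05, adjusted p = 0.0211), with every LOC401312 library below every vector library. With chromosome medians removed it was at -0.20 (adjusted p = 0.0311). The call held only in the refit lacking vector replicate 1, and adjusted p reached 0.105 in the other refits. Counts per gene join the spliced and unspliced forms, so the activity of ERN1 cannot be read from this value.

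The sensors themselves did not pass. ERN1 had 31.5, 29.5 and 30.9 CPM in LOC401312 and 29.2, 28.5 and 26.1 CPM in vector, all LOC401312 libraries above vector, by 0.13 (SE 0.07, adjusted p = 0.266). ATF6 had 67.1, 72.1 and 67.3 CPM in LOC401312 and 70.5, 71.4 and 68.9 CPM in vector, which overlap (-0.03, SE 0.05, adjusted p = 0.780). EIF2AK3 had 20.3, 21.1 and 21.6 CPM in LOC401312 and 24.6, 25.3 and 22.3 CPM in vector, without overlap (-0.19, SE 0.07, adjusted p = 0.150). EIF2AK3 lies on chromosome 2, as PDIA6 does, and with chromosome medians removed it was at 0.03 (SE 0.07, adjusted p = 0.859). The sensors are regulated after translation, which RNA levels do not measure.

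The third comparison took the ATF4 and CHOP arm, of which 1 of 10 fell and 0 rose in edgeR. The share was 10%, against 8.72% of all tested features and 13.5% of those that averaged 10 CPM or more. In DESeq2 1 fell and 0 rose, and at an unadjusted p of 0.05 edgeR gave 0 higher and 2 lower and DESeq2 1 higher and 2 lower. The median log2 change was -0.043. Summed over the arm, the genes took 680, 670 and 674 CPM in LOC401312 and 668, 722 and 714 CPM in vector, and these sums overlap.

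None of the 4 factors passed in edgeR or in DESeq2, and 1 was lower at an unadjusted p of 0.05 in both. ATF4, whose protein is set mainly by translation, had 246, 255 and 245 CPM in LOC401312 and 261, 272 and 268 CPM in vector. These did not overlap, and the log2 change was -0.10 (SE 0.04, adjusted p = 0.133). DDIT3, its proapoptotic partner, had 465, 440 and 370 counts in LOC401312 libraries and 405, 290 and 349 counts in vector libraries. In CPM this was 6.59, 6.45 and 5.54 in LOC401312 and 5.45, 4.85 and 5.67 in vector, where replicate 3 of LOC401312 fell below the highest vector library. The log2 change of 0.22 (SE 0.13, adjusted p = 0.374) was 0.10 (adjusted p = 0.735) with the median of chromosome 12 removed, where the gene lies. DDIT3 overlaps MARS1 on the other strand, which held 13976 counts on average, and whether the counting separated the strands is not known.

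ATF3 had the lowest level of the members, with 41, 69 and 99 counts in LOC401312 and 115, 100 and 60 counts in vector. Its log2 change of -0.45 has an interval of -1.27 to 0.37. CEBPB, a factor that ATF4 induces and pairs with, varied more within groups than between them. It had 63.2, 69.7 and 87.4 CPM in LOC401312 and 67.8, 94.5 and 95.7 CPM in vector (-0.23, SE 0.14, adjusted p = 0.394).

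Of the 6 targets, VLDLR fell and 0 rose in edgeR or DESeq2 (at an unadjusted p of 0.05, 0 rose in edgeR and 1 in DESeq2). In edgeR the share was 16.7%, against 8.72% of all tested features and 13.5% of those that averaged 10 CPM or more. VLDLR (ENSG00000147852; chromosome 9, 2621787 to 2660056, plus strand), a lipoprotein receptor that ATF4 induces under ER stress, had 13.1, 12.4 and 13.3 CPM in LOC401312 and 17.1, 14.9 and 16.3 CPM in vector. It fell by 0.32 (SE 0.09, adjusted p = 0.0496), the largest fall of the called members, with no overlap between groups. The call held only in the refit lacking vector replicate 2, and adjusted p reached 0.166 in the other refits. The chromosome 9 median was -0.086 over 494 genes, and with it removed VLDLR was at -0.23 (SE 0.09, adjusted p = 0.168).

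TRIB3, a pseudokinase that CHOP and ATF4 induce, had 99.3, 92.2 and 89.3 CPM in LOC401312 and 81.5, 86.6 and 90.8 CPM in vector. The groups overlapped, at a log2 change of 0.12 (SE 0.06, adjusted p = 0.251). In FPKM it had 29.1, 26.4 and 25.5 in LOC401312 and 22.6, 22.4 and 23.4 in vector, which do not overlap, and limma called it higher (0.24, adjusted p = 0.0365) before the shift of 0.109 was taken off. HSP90B1 was likewise called higher in FPKM (0.17, limma adjusted p = 0.0421). With each library centred on its median, limma on FPKM called EDEM1 higher and PDIA4, PDIA6 and XBP1 lower, and no other member.

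The other targets overlapped between groups and did not pass. DDIT4, an inhibitor of mTORC1, was at 169 ± 7.71 CPM in LOC401312 and 166 ± 8.92 CPM in vector (0.03, SE 0.05). STC2, a secreted glycoprotein, was at 52.8 ± 3.74 CPM in LOC401312 and 56.7 ± 2.39 CPM in vector (-0.11, SE 0.06). SESN2, a sensor of leucine and inhibitor of mTORC1, was at 14.1 ± 0.541 CPM in LOC401312 and 13.9 ± 1.81 CPM in vector (0.02, SE 0.10). CHAC1, which degrades glutathione and is among the most strongly induced targets of this arm, was at 2.98 ± 0.138 CPM in LOC401312 and 2.87 ± 0.492 CPM in vector (0.05, interval -0.37 to 0.47).

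**Figure D4:**
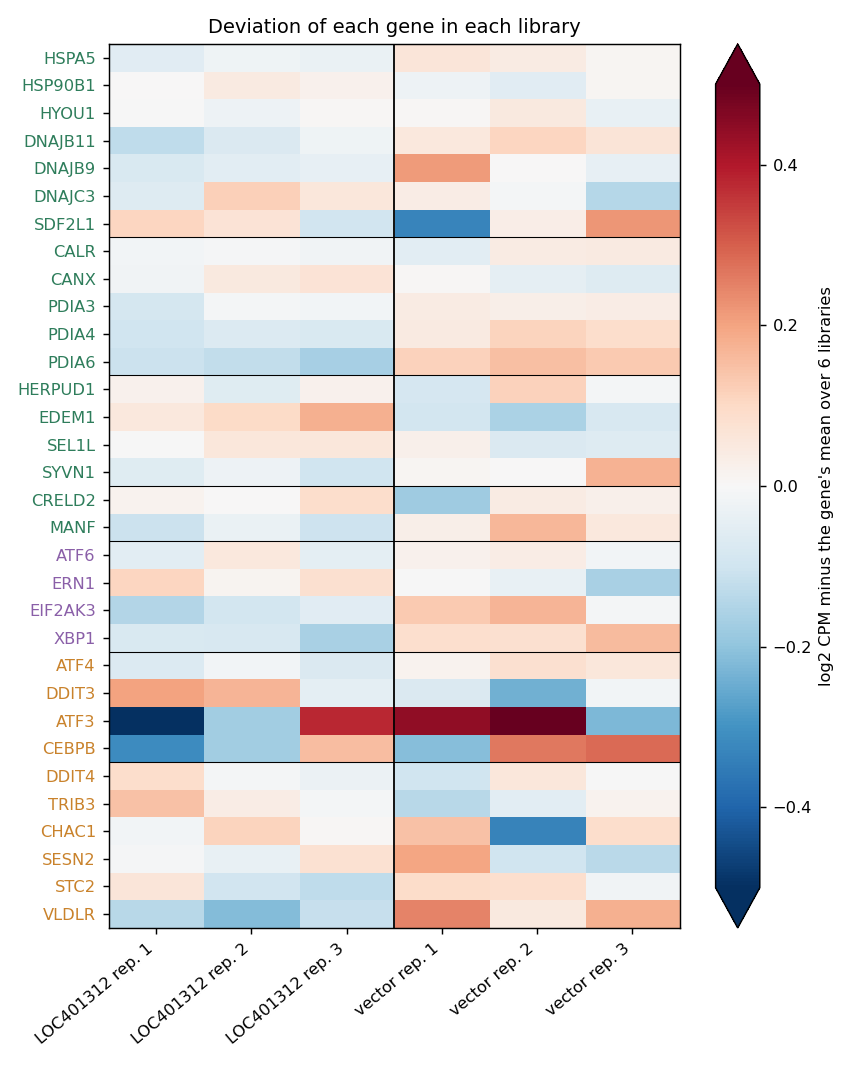
Log2 CPM of each member in each library minus the mean over the 6 libraries, with LOC401312 libraries left of the line and vector libraries right of it; lines across separate the roles and the colour scale ends at 0.5 in either direction. PDIA6 and XBP1 change colour at the line, while SDF2L1, CEBPB and ATF3 vary as much within a group as between groups.

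Across the members, 13 of 32 did not overlap between groups in CPM, 2 above and 11 below vector. Over all tested features 27.9% did not overlap, and 35.1% of those with a mean of at least 10 CPM. By direction, 2744 of all 19620 lay above and 2733 below vector. Of the 9884 at the higher level, 1640 lay above and 1825 below. An exact permutation test of 3 against 3 libraries cannot go below p = 0.1, the value each of the 13 reached. Of the 27 members that did not pass, 20 had a 95% interval within 0.3 of 0 on the log2 scale, and the widest were those of ATF3, CHAC1 and CEBPB.

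Position on a chromosome was not used in choosing the members, and 6 of them lie on chromosomes whose median was shifted. The members of chromosome 2 are PDIA6 and EIF2AK3, those of chromosome 9 are HSPA5 and VLDLR, and those of chromosome 12 are HSP90B1 and DDIT3. HSPA5 was at -0.07 before and 0.01 (adjusted p = 0.882) after removal of the chromosome 9 median, and 9 of its 10 nearest genes had a negative log2 change. HSP90B1 was at 0.05 before and -0.07 (adjusted p = 0.243) after removal of the chromosome 12 median of 0.117. With chromosome medians removed, 1 member was higher (EDEM1) and 2 lower (PDIA4 and XBP1), 9.38% of the members. Of all features 6.1% passed that fit, and of those that averaged 10 CPM or more 9.06%.

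Further genes of these pathways were taken from 3 lists, chosen with earlier results of these data known. Without LOC401312 replicates 2 and 3, 0 genes of these lists passed in edgeR (5 higher and 13 lower at an unadjusted p of 0.05). Over all tested features 8.72% passed, and 13.5% of those that averaged 10 CPM or more. Of 48 other genes of ER translocation, folding and degradation, 2 rose and 2 fell (8.33%), with a median log2 change of 0. SEC61A1, the channel subunit of the ER translocon, had 273, 276 and 278 CPM in LOC401312 and 248, 251 and 251 CPM in vector, a rise of 0.14 (SE 0.03, adjusted p = 0.0297). EDEM3, a relative of EDEM1, rose by 0.29 (SE 0.07, adjusted p = 0.0228), with 55.0, 56.7 and 55.1 CPM in LOC401312 and 50.3, 41.7 and 44.0 CPM in vector. UGGT1, the glucosyltransferase that senses folding (-0.25, adjusted p = 0.00645), and the lectin ERLEC1 (-0.19, adjusted p = 0.0354) fell. They are chromosome 2 genes. After the chromosome correction UGGT1 was at -0.02 (adjusted p = 0.859) and ERLEC1 at 0.03 (adjusted p = 0.761).

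Of 36 measured further ATF4 targets, 2 rose and 9 fell (30.6%), with a median log2 change of -0.079. The share was 8.72% of all features and 13.5% of those that averaged 10 CPM or more. ATF5, a factor of the same family, rose by 0.55 (SE 0.07, adjusted p = 0.00159), with 44.6, 45.7 and 47.3 CPM in LOC401312 and 29.0, 35.1 and 29.7 CPM in vector. GDF15, a stress cytokine, fell by 0.49 (SE 0.07, adjusted p = 0.00238), at 50.5 ± 1.20 CPM in LOC401312 and 70.7 ± 7.26 CPM in vector, without overlap. PSAT1, of serine synthesis, had a fall of 0.27 (SE 0.04, adjusted p = 0.00243), which became -0.18 (adjusted p = 0.0238) without the chromosome 9 median. MTHFD2, a mitochondrial folate enzyme of chromosome 2, showed a fall of 0.31 (SE 0.04, adjusted p = 0.00228). The same correction put it at -0.08 (adjusted p = 0.31). With chromosome medians removed, 1 of the 36 was higher and 8 were lower (25%). In that fit 6.1% of all features passed, and 9.06% of those that averaged 10 CPM or more.

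Of 29 measured genes of eIF2 and sensor signalling, 2 rose and 4 fell (20.7%), and all 6 lie on chromosomes 2 and 12. The share was 8.72% of all features and 13.5% of those that averaged 10 CPM or more. TMBIM6, an ER membrane protein that restrains cell death, rose by 0.26 (SE 0.03, adjusted p = 0.00144), with 735, 724 and 745 CPM in LOC401312 and 599, 607 and 631 CPM in vector. With the chromosome 12 median removed it was at 0.15 (adjusted p = 0.0309). BCL2L11, a proapoptotic target of CHOP, was at -0.44 (adjusted p = 0.00309) before and -0.22 (adjusted p = 0.0880) after removal of the chromosome 2 median. EIF2B4, a subunit of the eIF2 exchange factor (-0.30, adjusted p = 0.00547), was at -0.08 (adjusted p = 0.467), and NFE2L2, a transcription factor that EIF2AK3 can activate (-0.28, adjusted p = 0.00884), at -0.06 (adjusted p = 0.605). With chromosome medians removed 1 of the 29, TMBIM6, was called (3.45%, against 6.1% of all features).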

How the data were processed

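Total RNA of 6 libraries was sequenced, 3 per group. Per the file headers, the authors deposited 1 table with raw counts and FPKM for each library. The counts are whole numbers without normalization, and the authors scaled the FPKM values for gene length and sequencing total. Per the submitters' processing notes, the tools included cutadapt 1.9 and FastQC and the build was GRCh38 (hg38). Not given in the sources used here are aligner, counter, annotation release and strandedness, so whether overlapping genes on opposite strands were separated is unknown. No label names separate cultures, so the p-values rest on a spread between libraries that may be technical only. Replicates of a group differed by more than sampling noise, with chi-square values of 13.8 to 23.1 for each degree of freedom.

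Counts were tested with edgeR 4.0.16 (R 4.3.3): quasi-likelihood test, TMM scaling, filterByExpr, a single group term, Benjamini-Hochberg adjustment over all 19620 tested features and a threshold of 0.05. Adjusted p-values are from this fit unless another tool is named. The fit was tested on simulated data. A standard error is the absolute log2 change over the root of the F statistic, and CPM use TMM-adjusted totals. To remove chromosome medians, each library's median deviation over genes of a chromosome with a mean of at least 4 CPM entered as an offset. FPKM were tested with limma 3.58.1 on log2(FPKM + 0.1), which understates changes of low genes. DESeq2 1.42.0, other filters and scalings, a replicate block, and refits without libraries were alternatives. The members and lists were chosen with earlier results of these data known. All members are named. From the further lists, up to 4 genes past the threshold with the smallest p were named.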

Additional observations from a re-analysis of the deposited data

How the results depend on the processing

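None of the 5 members that passed in edgeR changed direction under any alternative run. HSP90B1 passed only in limma on FPKM at pseudocounts of 0.1 and 1 (0.17 in both, against 0.05 in edgeR), and was at -0.07 with chromosome medians removed. In all 52 refitted values of members changed sign without passing in either fit. Counts of members passing (ER folding higher, ER folding lower, sensors lower, ATF4 and CHOP lower; 1, 2, 1 and 1 in the report) moved as follows. With the replicate number as a block they were 0, 1, 0 and 0, with 509 features higher and 579 lower in all, and PDIA6 alone passed. Whether the numbers pair the libraries is not known, since no label says so. Deviations of same-numbered libraries correlated at -0.154, -0.0318 and -0.0566, and those of different-numbered libraries at -0.102 to 0.148. With 3 libraries per group these correlations cannot decide it. Without LOC401312 replicates 2 and 3 they were 0, 0, 0 and 0 (84 and 91 features), with the lone LOC401312 library assumed to vary like the vector libraries. At an adjusted p of 0.01 they were 0, 1, 0 and 0 (333 and 405 features). With limma on FPKM they were 2, 0, 0 and 0 at pseudocounts of 0.1 and 1, with 1 gene of the ATF4 and CHOP arm higher (1599 and 308 features, or 1584 and 303). Without a filter on FPKM, 0 folding genes, 0 sensors and 0 ATF4 and CHOP genes were lower (180 features lower). With chromosome medians removed, 1 folding gene and 0 ATF4 and CHOP genes were lower (514 features lower). Without a filter on counts, 0 sensors and 0 ATF4 and CHOP genes were lower (577 features lower). VLDLR alone lost its call with RLE scaling, total-count scaling or centred FPKM (0 lower in that arm), the last chosen after the data were seen. Leaving out each library gave 0 to 1, 1 to 2, 0 to 1 and 0 to 1, with 393 to 963 features higher and 439 to 1042 lower. The causes were not tested, except that a stricter threshold lowers the number passing by construction. Fewer libraries did not always lower it, since 963 features higher and 1042 lower exceed the main fit's 811 and 899. DESeq2 and a filter of 1 CPM called the same 5 members. ATF3, CHAC1 and DDIT3 have the fewest counts of the members, and the part of depth in their results was not tested.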
